A study of Mus musculus with 9 samples.

Results

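Expression of the Notch receptors Notch1 and Notch2, of the target genes Dtx1 and Hes1, and of Rbpj, Maml1 and Maml2, which act with the receptors in the nucleus, was followed in splenic B cells of 3 groups of mice. These 7 genes were taken by name from the 22174 genes of the deposited expression table, and all 7 were measured in every library. RNA-sequencing was done on 9 mice on the C57/BL6NTac strain, with 1 library per mouse and 3 mice a group. The Eµ-MTCP1 mice (founder line Z36) carried human MTCP1 under an immunoglobulin heavy chain promoter and Eµ enhancer, which drive expression in B cells, with the transgene inserted in an intron of Fam168a. The Eµ-TCL1 mice carried human TCL1 under elements of the same kind. Both leukemic groups were age-matched and untreated as far as the labels state, and had significant disease burden. The wildtype mice were littermates that lacked the human MTCP1 transgene, and the age and sex of each mouse are not given in the labels. B cells were isolated from spleen by negative selection.

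Notch receptors are membrane proteins that are cut when a ligand on a neighbouring cell binds them. The freed intracellular part enters the nucleus, joins the DNA-binding protein RBPJ and a Mastermind-like coactivator, and switches on targets such as Hes1 and Dtx1. In the mouse spleen, Notch2 is the receptor needed for marginal zone B cells, and in human chronic lymphocytic leukemia NOTCH1 is a recurrently mutated gene. Dtx1 encodes a ubiquitin ligase that acts on Notch signaling, and Hes1 encodes a transcriptional repressor.

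Between 6447539 and 8033309 reads per library were assigned to genes on the reference that also held the human transgene sequences. Human TCL1A stood at 14.9 to 15.6 on the authors' log2-like scale in the Eµ-TCL1 mice and at 6.04 to 6.96 in all others, and human MTCP1 stood at 11.1 to 12.3 in the Eµ-MTCP1 mice and at 5.85 to 6.19 in all others, so each library carried the transgene of its label. The 7 B cell markers summed to 7220 to 10900 CPM (read counts scaled to a common library size with TMM factors) over the 9 libraries. Wildtype mouse 2 was sequenced on another lane than the other 8 libraries.

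Dtx1 and Hes1 were lower in both leukemic groups than in wildtype B cells, whereas neither receptor nor any of the 3 nuclear complex genes passed the test. Dtx1 was 1.97-fold lower in Eµ-MTCP1 and 2.1-fold lower in Eµ-TCL1 mice, and Hes1 was 6.45-fold and 12.8-fold lower. With edgeR's quasi-likelihood test at an adjusted p under 0.05, 2 of the 7 genes were lower and 0 higher in Eµ-MTCP1 mice, against 9.48% of the 11165 genes tested that passed in either direction (3.99% of all genes as lower and 5.49% as higher). In Eµ-TCL1 mice 2 of the 7 were again lower and 0 higher, against 9.2% of all genes in either direction (4.13% as lower and 5.07% as higher). The calls of both genes in both comparisons were lost when wildtype mouse 2 was left out. The comparisons share the same wildtype mice and are not independent of each other. The 7 genes were chosen with earlier results of these data known, so these counts do not test them as a set. Between the 2 leukemias 0 of the 7 passed with edgeR or with DESeq2, and 0 had an unadjusted edgeR p under 0.05. Over all genes 0.0448% passed and 6.42% had an unadjusted p under 0.05. In these bulk samples, fewer cells of a type and less RNA per cell cannot be told apart.

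**Figure D1:**
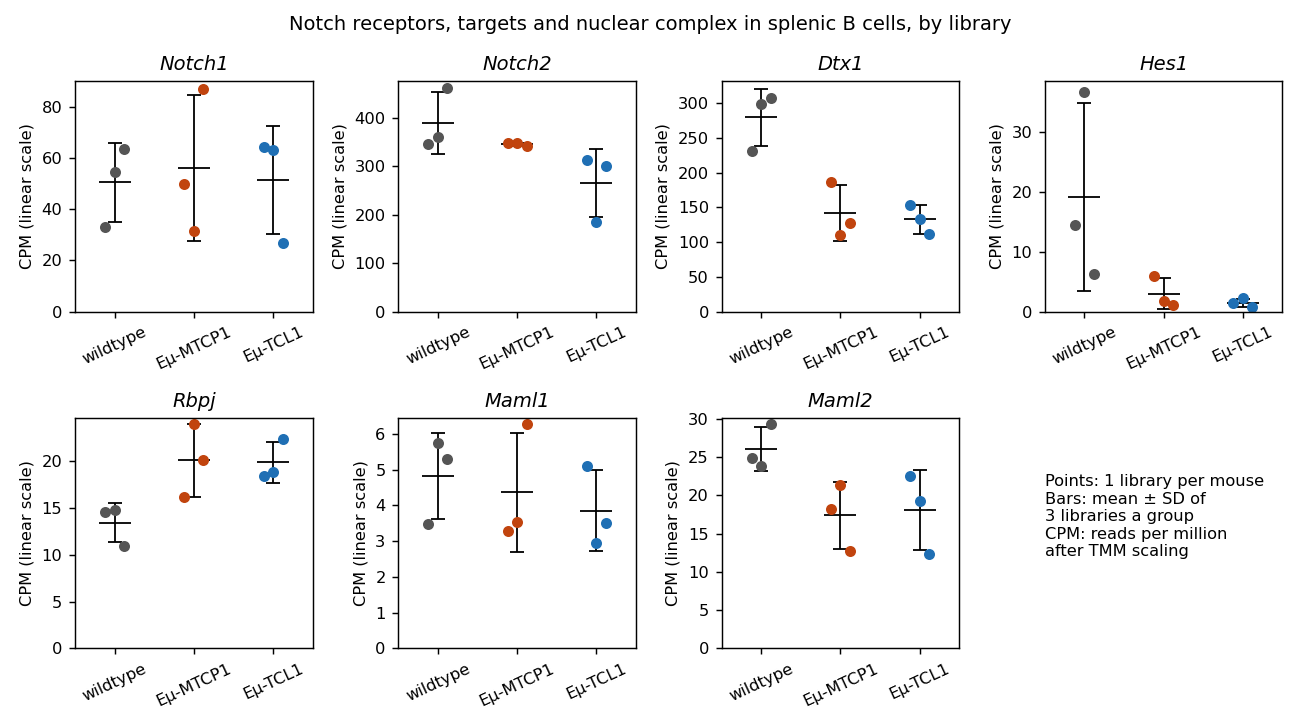
CPM after TMM scaling (linear axis from 0) of the 7 genes in each of the 9 libraries, with the mean and SD of 3 mice a group. For Dtx1 all 6 leukemic libraries lay at or below 187 CPM and all 3 wildtype libraries at or above 232 CPM, and for Hes1 wildtype mouse 2 stood far above the other wildtype mice.

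Promoter sequence from RefSeq (GRCm38.p6, 250 bases before to 50 after a start site) was matched by symbol for 6 of the 7 genes, in 8 windows. Hes1 had no entry. Dtx1 is shown because it fell in both leukemias, and Rbpj because its window held the core letters bound by RBPJ, TGGGAA, or TTCCCA when read on the other strand. The letters stand in capitals where they occur. The Dtx1 window lies at chr5:120711620-120711919 on the minus strand and the Rbpj window at chr5:53590096-53590395 on the plus strand.
Dtx1: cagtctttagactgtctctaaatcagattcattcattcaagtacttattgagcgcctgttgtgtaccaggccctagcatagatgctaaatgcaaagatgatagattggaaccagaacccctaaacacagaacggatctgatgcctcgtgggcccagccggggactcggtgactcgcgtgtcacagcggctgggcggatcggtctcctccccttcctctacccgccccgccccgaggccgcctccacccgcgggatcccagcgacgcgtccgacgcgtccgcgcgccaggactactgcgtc
Rbpj: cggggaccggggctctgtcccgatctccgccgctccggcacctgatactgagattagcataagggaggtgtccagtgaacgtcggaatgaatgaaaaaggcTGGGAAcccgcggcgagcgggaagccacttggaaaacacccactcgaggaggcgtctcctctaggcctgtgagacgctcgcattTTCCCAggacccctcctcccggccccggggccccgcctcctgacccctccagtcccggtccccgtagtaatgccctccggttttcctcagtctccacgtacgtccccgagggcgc

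The core letters occurred in 3 of the 8 windows, which belong to 2 genes, Rbpj and Maml2, and in none of the windows of the other 4 genes, Notch1, Notch2, Dtx1 and Maml1. The window printed for Rbpj held them 2 times, beginning 149 bases upstream of the start site on the gene's strand and 65 bases upstream on the opposite strand, and the second of these also lies in the overlapping window of the other Rbpj start site. Of all 32851 promoter windows of this length, 25.6% held the core on either strand. The longer form GTGGGAA, which contains the core and was also searched on both strands, was present in 6.38% of all windows and in 0 of the 8. A match is a stretch of letters and not a measured binding site, and an absent match says nothing of sites outside the window.

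Of the receptors, Notch2 was the more abundant in every library. The gene lies at chromosome 3, 98013527 to 98150361 on the plus strand (GRCm38), and Notch1 at chromosome 2, 26457903 to 26516663 on the minus strand. On the TPM scale, which accounts for transcript length and carries no TMM factor, Notch2 stood at 26.4 ± 1.67 (SD, n = 3) in wildtype mice and Notch1 at 3.47 ± 0.955. The TPM ratio of Notch2 to Notch1 was between 2.85 and 11 over the 9 libraries, and its range in the leukemias, 2.85 to 11, spanned that in wildtype, 6.48 to 10.1.

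Notch1 was covered by 420, 503 and 268 reads in wildtype mice 1 to 3, by 527, 220 and 304 in Eµ-MTCP1 mice 1 to 3, and by 192, 513 and 464 in Eµ-TCL1 mice 1 to 3. In CPM these were 63.5, 54.6 and 33.2 in wildtype, 87, 31.3 and 49.9 in Eµ-MTCP1, and 26.9, 63 and 64.2 in Eµ-TCL1 mice. The 3 groups overlapped, and the highest and the lowest library were both leukemic. The log2 difference from wildtype was 0.15 ± 0.42 (SE; adjusted p = 0.85, edgeR) in Eµ-MTCP1 and 0.03 ± 0.42 (adjusted p = 0.978, edgeR) in Eµ-TCL1 mice. Both intervals were wide, from -0.79 to 1.09 and from -0.91 to 0.96 on the log2 scale.

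Notch2 had 3055, 3320 and 2781 reads in wildtype, 2073, 2443 and 2120 in Eµ-MTCP1 and 2144, 1504 and 2262 in Eµ-TCL1 mice. In CPM the wildtype libraries stood at 462, 360 and 345, the Eµ-MTCP1 libraries at 342, 347 and 348, and the Eµ-TCL1 libraries at 300, 185 and 313. The Eµ-MTCP1 mice lay close together and overlapped the lower end of wildtype, while the 3 Eµ-TCL1 libraries lay below all others and Eµ-TCL1 mouse 2 was lowest. The log2 difference from wildtype was -0.17 ± 0.23 (adjusted p = 0.681, edgeR) in Eµ-MTCP1 and -0.55 ± 0.23 (adjusted p = 0.165, edgeR) in Eµ-TCL1 mice. Eµ-TCL1 against Eµ-MTCP1 gave -0.38 ± 0.23 (adjusted p = 0.827, edgeR; 95% interval -0.88 to 0.12), and Notch2 was the only one of the 7 genes whose libraries did not overlap between the leukemias, against 11% of all genes. On the TPM scale, wildtype mice had 24.6 to 27.9, Eµ-MTCP1 mice 17.9 to 18.4 and Eµ-TCL1 mice 10.7 to 17.4, without overlap of the groups. TPM carries no TMM factor, and with TMM scaling the Eµ-MTCP1 and wildtype libraries overlapped in CPM. Scaling by library size alone gave -0.40 and -0.69 for the comparisons with wildtype, neither past the adjusted threshold. That scaling also moved the median of all genes, by -0.23 and -0.14.

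Dtx1, at chromosome 5, 120680202 to 120711927 on the minus strand, had at least 1872 reads in each wildtype mouse, 777, 777 and 1141 reads in the Eµ-MTCP1 mice, and between 797 and 1113 in the Eµ-TCL1 mice. In CPM the wildtype libraries had 308, 299 and 232, the Eµ-MTCP1 libraries 128, 110 and 187, and the Eµ-TCL1 libraries 112, 133 and 154. Every leukemic library lay below every wildtype library, and the leukemias overlapped each other. The mean fell from 280 ± 41.7 CPM in wildtype to 142 ± 40.2 in Eµ-MTCP1 and 133 ± 21.2 in Eµ-TCL1 mice (SD, n = 3 each). The log2 difference was -0.98 ± 0.23 (adjusted p = 0.0266, edgeR) and -1.07 ± 0.23 (adjusted p = 0.0173, edgeR), and between the leukemias -0.09 ± 0.23 (95% interval -0.61 to 0.42; adjusted p = 0.964, edgeR). The Eµ-MTCP1 call of Dtx1 was lost, at the same direction and an adjusted p of 0.0597 to 0.081 (edgeR), without Eµ-MTCP1 mouse 1 (-0.94) or 2 (-0.86) or without wildtype mouse 1 (-0.90) or 2 (-0.96). The Eµ-TCL1 call was lost, at 0.0557 to 0.0749 (adjusted p, edgeR), without Eµ-TCL1 mouse 1 (-0.96) or wildtype mouse 2 (-1.05), and also without wildtype mouse 1.

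Dtx1 was also the most abundant of the 7 per length, at 133 ± 20.4 TPM in wildtype, 52.8 ± 14.4 in Eµ-MTCP1 and 55.1 ± 10 in Eµ-TCL1 mice. These values are on the reference of coding sequences. On the standard reference, which also holds whole and intron-retaining transcripts, 34.1% to 37.7% of Dtx1 reads in wildtype were assigned to retained-intron models, against 23.3% to 47.4% for Eµ-MTCP1 and 31.9% to 38.3% for Eµ-TCL1 mice. The leukemic ranges spanned the wildtype range. Over that reference Dtx1 passed the threshold as lower in both leukemias.

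Hes1, at chromosome 16, 30064384 to 30067796 on the plus strand, was covered by few reads. Wildtype mice had 42, 338 and 116 reads, Eµ-MTCP1 mice 7, 13 and 36, and Eµ-TCL1 mice 6, 18 and 10. In CPM these were 6.35, 36.7 and 14.4 in wildtype, 1.16, 1.85 and 5.91 in Eµ-MTCP1, and 0.84, 2.21 and 1.38 in Eµ-TCL1 mice. Wildtype mouse 2 was far the highest, and the groups did not overlap with wildtype, although the highest Eµ-MTCP1 library (5.91) nearly reached the lowest wildtype library (6.35). The mean was 19.1 ± 15.7 CPM in wildtype, 2.97 ± 2.57 in Eµ-MTCP1 and 1.48 ± 0.69 in Eµ-TCL1 mice (SD, n = 3 each).

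The log2 difference of Hes1 was -2.69 ± 0.75 in Eµ-MTCP1 (adjusted p = 0.049961, edgeR), which is just under the threshold, and -3.67 ± 0.79 in Eµ-TCL1 mice (adjusted p = 0.0165, edgeR). Between the leukemias it was -0.98 ± 0.78 (95% interval -2.71 to 0.75; adjusted p = 0.873, edgeR). Without wildtype mouse 2 the differences from wildtype were -1.84 (adjusted p = 0.214, edgeR) and -2.82 (adjusted p = 0.0752, edgeR), so both calls were lost. The Eµ-MTCP1 call was further lost without Eµ-MTCP1 mouse 1 (-2.34) or 2 (-2.47), wildtype mouse 3 (-2.87) or any 1 of the Eµ-TCL1 mice (-2.71 to -2.69), which share the estimate of spread. The Eµ-TCL1 call was further lost without Eµ-TCL1 mouse 1 (-3.40) or 3 (-3.62). Myeloid markers did not rank the wildtype mice alike. The neutrophil gene S100a8 stood at 18.9, 201 and 56.1 CPM in wildtype mice 1 to 3, Csf1r at 157, 94.8 and 62.4, and Lyz2 at 929, 807 and 559. The other myeloid markers were likewise highest in wildtype mouse 1 or 2. Any part of myeloid cells in the high Hes1 of wildtype mouse 2 was not tested.

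Markers of other cells were set beside the falls of Hes1 and Dtx1. The 10 myeloid markers summed to 853 to 1780 CPM in wildtype, 862 to 1360 for Eµ-MTCP1 and 369 to 1610 for Eµ-TCL1 mice, with none at 0 reads in a whole group. The 5 dendritic cell markers summed to 21.7 to 49.1 CPM in wildtype, 3.8 to 18.3 for Eµ-MTCP1 and 2.66 to 36.5 for Eµ-TCL1 mice. Of these, Xcr1 had 6 reads in wildtype mouse 1, 1 in Eµ-TCL1 mouse 3 and 0 in every other library. The 9 T cell markers summed to 73.3 to 104 CPM in wildtype, 36.6 to 140 for Eµ-MTCP1 and 52.8 to 144 for Eµ-TCL1 mice. Most of each sum was Lck, at 68.6 to 94.9, 30.7 to 115 and 42.3 to 90.2 CPM, so the sums say little of the other T cell genes. Eµ-TCL1 mouse 3 had 63 reads of Cd3d, 51 of Cd3e and 75 of Cd8b1, against at most 19, 11 and 12 in any other library. Its 146 reads of Cd3g were near the 136 of Eµ-MTCP1 mouse 1. The 5 NK cell markers lay at 10.3 to 25.7 CPM, 0.991 to 10.5 and 2.94 to 33.9 in the same order of groups. The endothelial marker Kdr was at 0 reads in all 9 libraries. The 5 plasma cell markers summed to 810 to 1360 CPM in wildtype, 346 to 2940 for Eµ-MTCP1 and 127 to 1990 for Eµ-TCL1 mice. The 6 endothelial and stromal markers summed to 140 to 179, 111 to 160 and 115 to 156 CPM, of which Pecam1 alone was 140 to 177 in wildtype. The 6 erythroid markers summed to 36.7 to 173, 26.3 to 316 and 22.4 to 69.1 CPM. The summed dendritic cell markers of the Eµ-MTCP1 mice lay below the wildtype range, at most 18.3 against at least 21.7 CPM, although 0 of the 3 tested dendritic cell markers passed there with edgeR and 1 had an unadjusted p under 0.05. Over all marker lists 4 genes passed in a comparison with wildtype, beside 9.48% and 9.2% of all genes in Eµ-MTCP1 and Eµ-TCL1 mice. The genes tested were 7 B cell, 4 T cell, 10 myeloid, 3 dendritic cell, 4 NK cell, 5 plasma cell, 2 endothelial and stromal and 5 erythroid markers. The dendritic cell marker Flt3 was lower in Eµ-TCL1 mice (-3.06, adjusted p = 0.0168, edgeR), and so was the B cell transcription factor Ebf1 (-0.87, adjusted p = 0.0139, edgeR). Cd68, a macrophage gene of the myeloid list, was higher in both leukemias (2.06 and 1.91, adjusted p = 0.00316 and 0.00462, edgeR), as was Prdm1 of the plasma cell list (2.11 and 1.83, adjusted p = 0.0227 and 0.0401, edgeR). The other 9 myeloid and 4 plasma cell markers did not pass. Median log2 differences were -0.13 and -0.28 over the myeloid list and 0.52 and 0.14 over the plasma cell list. The part of these cells in the falls of Hes1 and Dtx1 was not tested.

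Rbpj, the DNA-binding partner of the cleaved receptor, lies at chromosome 5, 53466152 to 53657362 on the plus strand. It had 73, 136 and 118 reads in wildtype, 122, 169 and 99 in Eµ-MTCP1 and 160, 154 and 133 in Eµ-TCL1 mice. In CPM the wildtype libraries had 11, 14.8 and 14.6, the Eµ-MTCP1 libraries 20.2, 24 and 16.2, and the Eµ-TCL1 libraries 22.4, 18.9 and 18.4. All 6 leukemic libraries lay above all wildtype libraries. The log2 difference was 0.58 ± 0.25 (adjusted p = 0.186, edgeR) in Eµ-MTCP1 and 0.56 ± 0.25 (adjusted p = 0.197, edgeR) in Eµ-TCL1 mice, neither past the threshold. On the TPM scale the groups overlapped, at 3.58 to 6.21 in wildtype, 4.85 to 7.22 for Eµ-MTCP1 and 5.58 to 6.72 for Eµ-TCL1 mice.

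Maml2, a Mastermind-like coactivator at chromosome 9, 13297957 to 13709388 on the plus strand, was placed the other way. Wildtype mice had 194, 220 and 201 reads, Eµ-MTCP1 mice 77, 150 and 111, and Eµ-TCL1 mice 88, 157 and 163. In CPM these were 29.3, 23.9 and 24.9 in wildtype, 12.7, 21.3 and 18.2 in Eµ-MTCP1, and 12.3, 19.3 and 22.5 in Eµ-TCL1 mice. Every leukemic library lay below every wildtype library. The log2 difference was -0.58 ± 0.29 (adjusted p = 0.248, edgeR) in Eµ-MTCP1 and -0.53 ± 0.29 (adjusted p = 0.295, edgeR) in Eµ-TCL1 mice, and it did not pass the threshold.

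Maml1, the related coactivator at chromosome 11, 50255634 to 50292311 on the minus strand, had 20 to 53 reads per library. Its CPM was 5.29, 5.75 and 3.47 in wildtype, 6.28, 3.55 and 3.28 in Eµ-MTCP1, and 3.5, 2.95 and 5.12 in Eµ-TCL1 mice, and the groups overlapped. The log2 difference was -0.15 ± 0.46 (adjusted p = 0.869, edgeR) and -0.33 ± 0.46 (adjusted p = 0.706, edgeR). Maml1 was the least abundant of the 7 per length, at 0.976 ± 0.288 TPM in wildtype mice. Most of its gene model is overlapped by an antisense model, Gm26542. On the standard reference, whole transcripts gave a different picture of its isoforms by library: the share of Maml1 reads on transcript ENSMUST00000135868.7 was 11.1% to 75.3% in wildtype, 55.5% to 89.2% for Eµ-MTCP1 and 79.5% to 89.6% for Eµ-TCL1 mice. The Eµ-TCL1 range lay above the wildtype range, at 95 to 184 reads of Maml1 per library on that reference, and this share was not tested.

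Over the 7 genes, libraries did not overlap wildtype for 4 genes in Eµ-MTCP1 mice, Dtx1, Hes1, Rbpj and Maml2, against 29.9% of all genes tested. In Eµ-TCL1 mice they did not overlap for 5 genes, these and Notch2, against 32.6%. The median log2 difference over the 7 was -0.17 in Eµ-MTCP1 and -0.53 in Eµ-TCL1 mice, beside -0.02 and -0.01 over all genes tested. Unadjusted p values were under 0.05 for 3 and 4 of the 7 genes, beside 25% and 25.1% of all genes tested. As the 7 were chosen with earlier results of these data known, these shares do not test them as a set. Per length, the wildtype order was Dtx1, then Hes1 (31.1 ± 28.2 TPM) and Notch2, which did not differ beyond their spread, then Rbpj (4.95 ± 1.32), Maml2 (4.04 ± 0.16) and Notch1, whose ranges also met, and Maml1. In Eµ-TCL1 mice the order was Dtx1, Notch2 (14.9 ± 3.65), Rbpj (6.22 ± 0.58), then Notch1 (2.97 ± 1.27), Maml2 (2.32 ± 0.665) and Hes1 (2.07 ± 1.07), which overlapped, and Maml1 (0.655 ± 0.184).

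**Figure D2:**
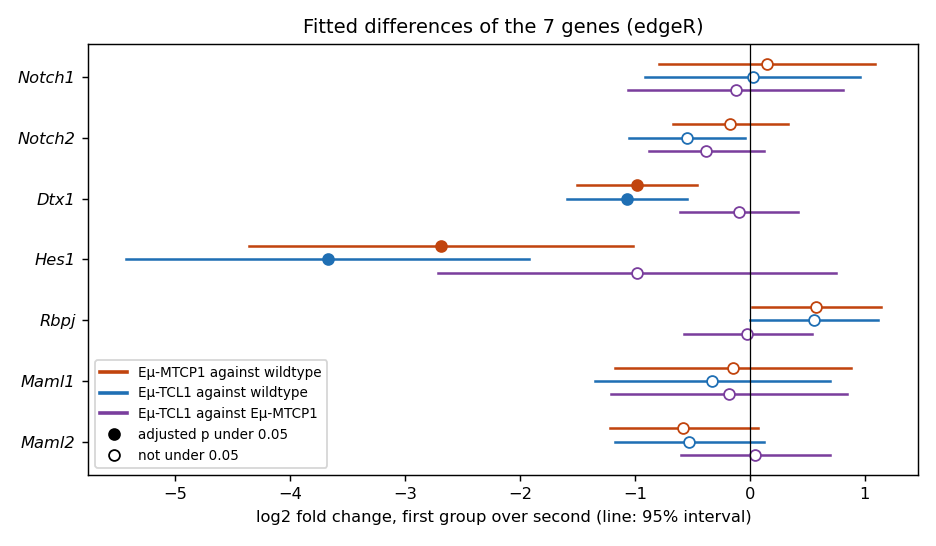
Fitted log2 fold change (x axis) of the 7 genes (y axis) in the 3 comparisons, with 95% intervals as lines and filled points where the adjusted p of edgeR was under 0.05. Only Dtx1 and Hes1 have filled points, both below 0 in each comparison with wildtype, and no gene has one between the leukemias.

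Genes with a pattern most like that of each member over the 9 libraries were named by the smallest root mean square difference of centred log2 CPM, among 8961 candidate genes, as a description without a test. For Dtx1 these were Cep68 (0.174), Ppcs (0.182) and Sipa1 (0.187). For Hes1 they were Dusp2 (0.604), Tmem64 (0.693) and Hs3st1 (0.758). The difference is not scaled to a gene's own spread, so its size cannot be compared between a widely varying gene such as Hes1 and the others. Notch1 was nearest to Gm49373 (0.221), Wdr90 (0.234) and Kif4 (0.259), and Notch2 to Mthfsl (0.112), Mettl17 (0.113) and Rbks (0.157). Rbpj was nearest to Zfr (0.123), Morf4l2 (0.135) and Zfp961 (0.138). The coactivator Maml1 was nearest to Daxx (0.152), Edc4 (0.164) and Mgrn1 (0.174), and Maml2 to Nedd9 (0.143), Taz (0.144) and Dusp16 (0.152).

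The rest of the pathway was examined through 62 further genes grouped by role, of which 51 passed the filter on low counts. In Eµ-MTCP1 mice 1 of the 51 was higher and 5 were lower, and in Eµ-TCL1 mice likewise 1 was higher and 5 were lower, against the 9.48% and 9.2% of all genes given above. Their median log2 difference was -0.15 and -0.33. Between the leukemias 0 of the 51 passed with edgeR or DESeq2, and 4 had an unadjusted edgeR p under 0.05, beside 6.42% of all genes tested.

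Of the receptors outside the 7 genes, Notch3 had 0 to 2 reads per library and Notch4 0 to 8, too few to test. Of the 5 ligands, Dll3 had 0 to 2 reads, Dll4 0 to 7 and Jag1 0 to 3, at or near the 3 reads that a count of 0 allows (a level of 0.373 to 0.465 CPM before TMM scaling). Jag2 had 7, 6 and 4 reads in wildtype, 2, 1 and 24 in Eµ-MTCP1 and 87, 12 and 3 in Eµ-TCL1 mice, and did not pass in either comparison.

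Dll1, a Delta-like ligand, had the most reads of the ligands in wildtype B cells, with 67, 79 and 27 in wildtype mice 1 to 3. It had 2, 3 and 0 reads in the Eµ-MTCP1 mice, and 9, 0 and 3 reads in the Eµ-TCL1 mice. All wildtype libraries lay above all leukemic ones. It passed as lower in Eµ-MTCP1 mice (adjusted p = 0.028, edgeR) and had an adjusted p of 0.0537 (edgeR) in Eµ-TCL1 mice. Summed over the mice of a group and divided by the reads of that group, wildtype was 32.8 times Eµ-MTCP1 (exact 95% interval 13.8 to 102) and 15 times Eµ-TCL1 (8.38 to 29.6), intervals that cover counting error alone. The Eµ-MTCP1 call of Dll1 was lost without any 1 of the Eµ-MTCP1 or wildtype mice, with fitted log2 values of -5.36 to -4.21 over all 16 alternatives. In Eµ-TCL1 mice Dll1 passed in 7 of 16 alternatives, and its values over all 16 were -5.08 to -3.13, the lowest coming without Eµ-TCL1 mouse 1 (adjusted p = 0.0438, edgeR).

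Of the 5 enzymes that add sugars to the receptors, 0 passed in either leukemia with edgeR, and 0 and 1 had an unadjusted p under 0.05. Over all genes tested, 25% and 25.1% had an unadjusted p under 0.05 in Eµ-MTCP1 and Eµ-TCL1 mice. The fringe gene Lfng had 115, 40 and 83 reads in wildtype, 21, 28 and 20 in Eµ-MTCP1 and 0, 25 and 30 in Eµ-TCL1 mice (log2 difference -2.13 ± 0.92 in Eµ-TCL1, adjusted p = 0.182, edgeR). Of the 9 tested genes that cut the receptors, among them Adam10 and the gamma-secretase subunits, 0 passed with edgeR. Of these 9, 1 and 2 had an unadjusted p under 0.05, beside the same 25% and 25.1% of all genes. The gamma-secretase subunit Psenen had log2 differences of 0.54 and 0.57 (adjusted p = 0.174 and 0.149, edgeR), and Aph1a, another subunit, had 0.72 in Eµ-TCL1 mice (adjusted p = 0.13, edgeR).

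Of 11 tested genes for trafficking and turnover, 1 was lower in each leukemia and 0 were higher, beside 3.99% and 4.13% of all genes tested as lower. The lower gene was Neurl3, a ubiquitin ligase of the Neuralized family, with 447, 486 and 446 reads in wildtype, 7, 142 and 34 in Eµ-MTCP1 and 49, 35 and 103 in Eµ-TCL1 mice. All leukemic libraries lay below all wildtype libraries. The log2 difference was -2.69 ± 0.75 (adjusted p = 0.049961, edgeR) and -2.79 ± 0.75 (adjusted p = 0.0444, edgeR), both close to the threshold. Each call of Neurl3 held in 9 of 16 alternatives and was lost with transcript length offsets and without any 1 of the wildtype mice, among others, with values of -4.15 to -2.20 and -3.39 to -2.49 over the alternatives. Fbxw7, which marks the cleaved receptor for degradation, had 0.52 and 0.60 (adjusted p = 0.19 and 0.134, edgeR).

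Of the 6 nuclear coactivators 0 passed in either leukemia with edgeR, and 1 in each had an unadjusted p under 0.05, Ep300 for Eµ-MTCP1 (0.45, adjusted p = 0.118) and Snw1 for Eµ-TCL1 mice (-0.50, adjusted p = 0.106). Over all genes tested, 25% and 25.1% had an unadjusted p under 0.05. Of the 11 nuclear corepressors 1 was higher in each leukemia and 1 was lower in Eµ-TCL1 mice. Over all genes tested, 5.49% and 5.07% were higher, and 4.13% were lower in Eµ-TCL1 mice. The higher gene was Tle3, a Groucho family corepressor, with 403, 388 and 329 reads in wildtype, 569, 701 and 497 in Eµ-MTCP1 and 900, 879 and 883 in Eµ-TCL1 mice, without overlap. Tle3 rose by 0.94 ± 0.20 (adjusted p = 0.0157, edgeR) and 1.31 ± 0.20 (adjusted p = 0.00275, edgeR) on the log2 scale, and the difference between the leukemias, 0.37 ± 0.20, did not pass (adjusted p = 0.812, edgeR). The Eµ-MTCP1 call of Tle3 was lost without wildtype mouse 2 or 3, and its value stayed between 0.71 and 1.14.

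Tle1, of the same family, had 51, 74 and 34 reads in wildtype, 4, 2 and 16 in Eµ-MTCP1 and 2, 7 and 6 in Eµ-TCL1 mice. All leukemic libraries lay below wildtype. It passed as lower in Eµ-TCL1 mice (-3.30 ± 0.83, adjusted p = 0.0325, edgeR) and did not pass in Eµ-MTCP1 mice (-2.48 ± 0.79, adjusted p = 0.0816, edgeR). The Eµ-TCL1 call of Tle1 was lost without any 1 of the Eµ-TCL1 or wildtype mice and with transcript length offsets (adjusted p = 0.112, edgeR), with values of -3.56 to -2.95 over the alternatives. In Eµ-MTCP1 mice Tle1 passed in 5 of 16 alternatives, among them transcript length offsets (-4.00, adjusted p = 0.0437, edgeR) and the fit without Eµ-MTCP1 mouse 3 (-3.79, adjusted p = 0.0316, edgeR), and its values over all 16 were -4.00 to -2.03. Of the other corepressors with an unadjusted p under 0.05, Tle2 had 16, 18 and 17 reads in wildtype and 0 to 4 in every leukemic library (adjusted p = 0.148 and 0.124, edgeR), Tle4 had log2 differences of 0.75 and 0.88 (adjusted p = 0.139 and 0.0865, edgeR), and Kdm5a had -0.60 in Eµ-TCL1 mice (adjusted p = 0.163, edgeR).

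Of 7 tested further targets, 3 were lower in each leukemia and 0 were higher, beside 3.99% and 4.13% of all genes tested that were lower in Eµ-MTCP1 and Eµ-TCL1 mice. This list was chosen with earlier results of these data known, so its counts do not test the targets as a set. Fcer2a, encoding the low-affinity IgE receptor CD23, had 2389, 2697 and 3338 reads in wildtype, 35, 106 and 50 in Eµ-MTCP1 and 15, 38 and 33 in Eµ-TCL1 mice (log2 differences -5.19 ± 0.41 and -6.55 ± 0.44). Cr2, encoding complement receptor CD21, had 4040, 6921 and 8663 reads in wildtype against 25 to 307 and 88 to 118. Asb2, a substrate adaptor of a ubiquitin ligase, had 305, 418 and 204 reads in wildtype, 18, 19 and 9 in Eµ-MTCP1 and 1, 13 and 56 in Eµ-TCL1 mice (-4.02 ± 0.87, adjusted p = 0.0172, and -3.62 ± 0.84, adjusted p = 0.0232, edgeR). Asb2 lost its call without wildtype mouse 2 in each leukemia and without some other single mice, at -4.26 to -3.77 and -5.42 to -3.06 over the alternatives. Cr2 and Fcer2a held in all 16 alternatives in each leukemia, and are also surface markers of mature B cell subsets. By flow cytometry of blood, the paper found more cells without CD21, and dim CD23, among the leukemic cells of Eµ-MTCP1 mice.

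The remaining targets did not pass. Cd1d1, encoding a lipid-presenting molecule, had 499, 906 and 607 reads in wildtype, 331, 155 and 294 in Eµ-MTCP1 and 230, 232 and 619 in Eµ-TCL1 mice, and its mean of 41.6 ± 17.3 CPM for Eµ-MTCP1 lay below the 83 ± 13.3 CPM of wildtype without overlap (SD, n = 3; adjusted p = 0.191, edgeR). Myc, encoding a growth-promoting transcription factor, had log2 differences of -0.67 and -0.36, with 1443 to 2758 reads in wildtype, 568 to 1533 for Eµ-MTCP1 and 1087 to 1789 for Eµ-TCL1 mice. Hes5 had 8 to 42 reads per library and Il2ra 1 to 25. Hey1, Hey2 and Heyl had at most 5 reads in any library and Nrarp at most 14, too few to test.

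**Figure D3:**
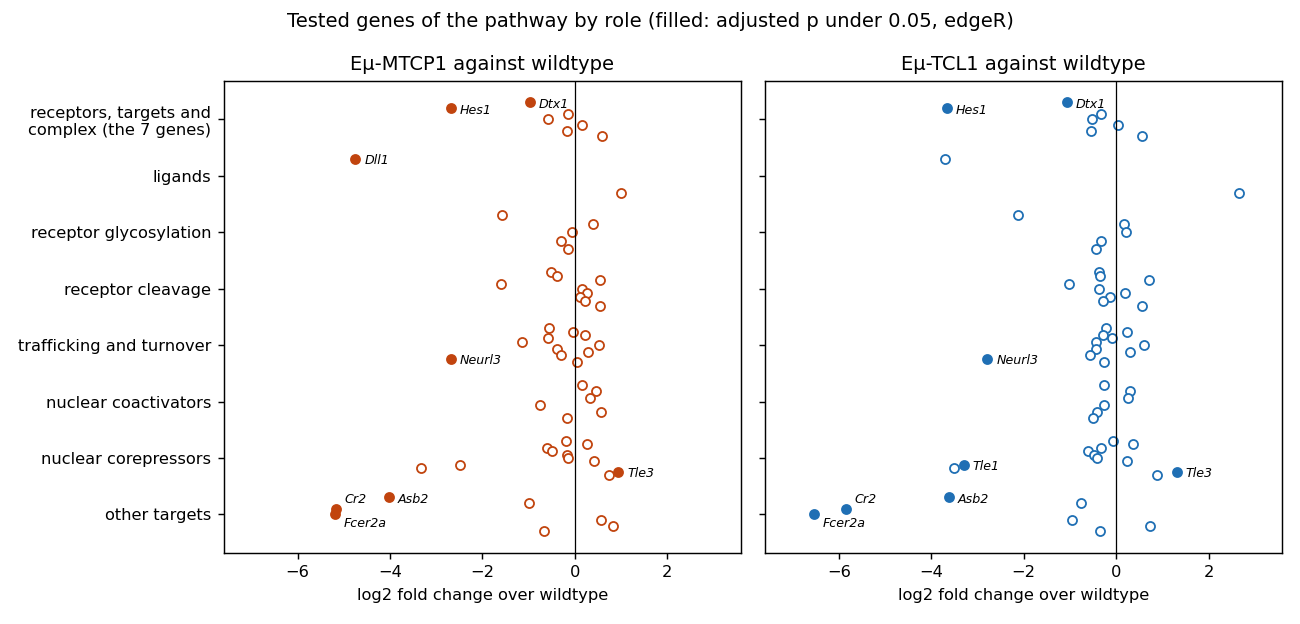
Fitted log2 fold change over wildtype (x axis) of the 7 genes and the 51 other tested pathway genes, by role (y axis), for Eµ-MTCP1 (left) and Eµ-TCL1 (right), filled and named where the adjusted p of edgeR was under 0.05. Cr2 and Fcer2a lie farthest below 0 and Tle3 is the only filled point above 0 in each panel.

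The calls of Dtx1 and Hes1 were recomputed under 16 alternatives, 9 of which left out 1 library each. Dtx1 kept a log2 difference between -1.23 and -0.86 in Eµ-MTCP1 and between -1.21 and -0.96 in Eµ-TCL1 mice, and passed in 12 and 13 of the 16. Hes1 lay between -3.65 and -1.84 and between -4.10 and -2.82, and passed in 8 and 13 of the 16.

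**Figure D4:**
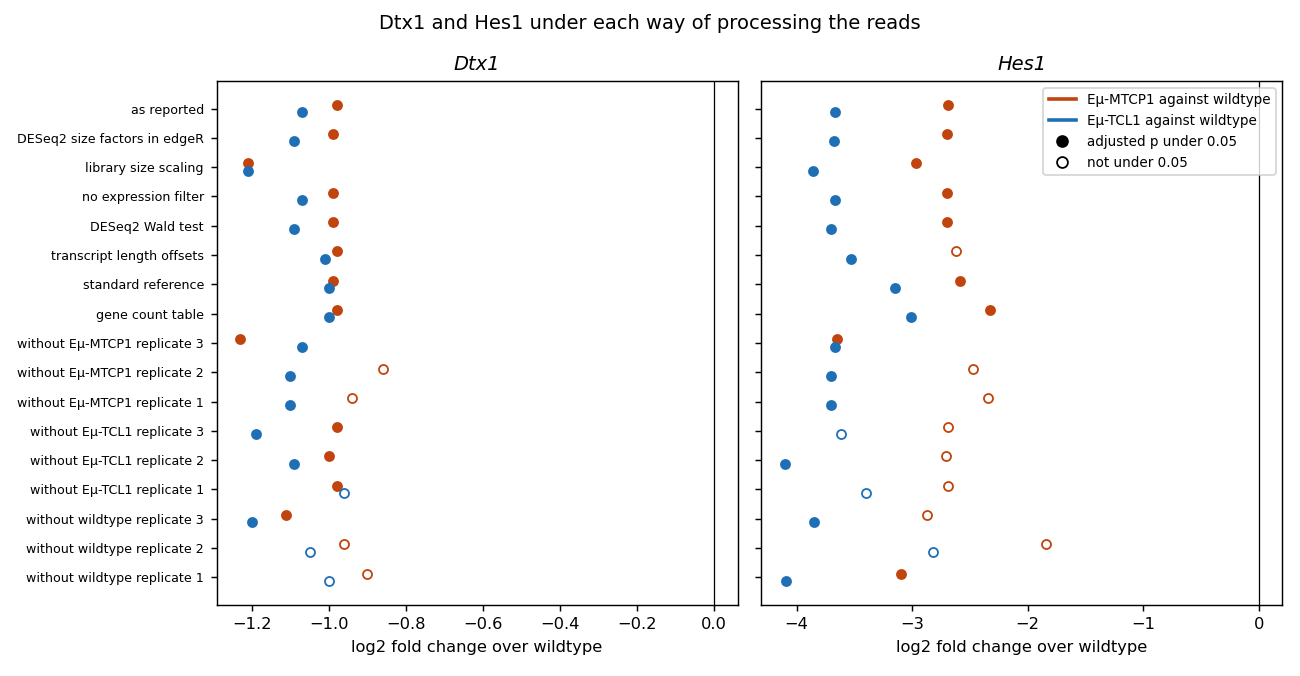
Log2 fold change over wildtype (x axis) of Dtx1 (left) and Hes1 (right) as reported and under each of the 16 alternatives (y axis), filled where the adjusted p was under 0.05. All points lie below 0, and the fold change of Hes1 in Eµ-MTCP1 mice came nearest to 0 without wildtype replicate 2.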

How the data were processed

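RNA was taken from splenic B cells isolated by negative selection, preamplified with SMARTer v4 and made into Nextera XT libraries, and a stranded kit is also named by the study. Reads were processed by the authors, whose submitted processing notes name CASAVA 1.8.2, HISAT2 2.0.6, Subread, featureCounts, Salmon 1.0.0 and DESeq2. The estimated counts and TPM deposited by the authors came from Salmon on 2 references, a standard mouse one and one holding coding sequences with the human transgenes added. The whole-series counts deposited by the authors were raw counts per gene, and the per-library values deposited by the authors as normalized expression are on a log2-like scale and were used for the transgenes only. Fold changes and p-values of the authors' own comparisons were not used.

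Transcripts were summed per gene and rounded on the second reference (442 of 57871 transcripts, 0.19% to 0.291% of reads, matched no gene and were left out). All 9 libraries entered 1 fit in edgeR 4.0.16 (R 4.3.3) with TMM, its default filter on low counts, the quasi-likelihood test and Benjamini-Hochberg adjustment over 11165 genes, tested on simulated data. Groups come from the labels, each library being 1 mouse. Standard errors were computed from the F statistic. The alternatives included DESeq2 1.42.0, other scalings and references, and leaving out each library. The members and lists were chosen with earlier results of these data known. Named genes were the 7, every other pathway gene called against wildtype, with Notch3, Notch4 and the ligands, and the 3 genes most like each of the 7 in pattern over the libraries, among genes with a mean of at least 5 CPM. Pathway genes that did not pass but had an unadjusted p under 0.05, and the other targets, were named after their values were seen. Depth limits precision for genes with few reads, and intervals cover counting error alone where stated.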

Additional observations from a re-analysis of the deposited data

How the results depend on the processing

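With transcript length offsets the number of the 7 genes called in Eµ-MTCP1 mice was 1 in place of 2, because Hes1 then had an adjusted p of 0.0643 (edgeR). Under the other 6 settings it was 2, and in Eµ-TCL1 mice it was 2 under all 7. Leaving out 1 library gave 0 to 2 of the 7 genes called for either leukemia, and of the other pathway genes 2 to 6 for Eµ-MTCP1 and 3 to 7 for Eµ-TCL1 in place of 6 each. Under the other 7 settings the pathway counts were 6 to 8 and 4 to 8, with the 4 under transcript length offsets, where Neurl3 and Tle1 did not pass in Eµ-TCL1 mice. Eµ-MTCP1 calls were 0 without Eµ-MTCP1 replicate 1, Eµ-MTCP1 replicate 2 or wildtype replicate 2, and Eµ-TCL1 calls were 0 without Eµ-TCL1 replicate 1 or wildtype replicate 2. Wherever calls were lost, the cause was not tested.

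Small differences turned sign. With library size scaling Notch1 was -0.09 in Eµ-MTCP1 and -0.10 in Eµ-TCL1 mice against wildtype, and Rbpj was 0.08 between the leukemias. That scaling moved the median of all genes by -0.23 and -0.14, and turned the calls over all genes from 613 higher and 446 lower to 391 and 730 in Eµ-MTCP1, and from 566 and 461 to 446 and 593 in Eµ-TCL1 mice. Leaving out 1 library gave Notch1 -0.34 to 0.41 and -0.21 to 0.34, and Maml1 -0.52 to 0.02 in Eµ-MTCP1 mice. Between the leukemias it gave Notch1 -0.41 to 0.34, Dtx1 -0.25 to 0.15, Rbpj -0.15 to 0.13, Maml1 -0.44 to 0.16 and Maml2 -0.14 to 0.26.

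Over all genes DESeq2 called 1646, 1695 and 73 genes in place of 1059, 1027 and 5, without an expression filter 16 genes passed between the leukemias, and leaving out 1 library lowered the calls against wildtype to as few as 525 and 517. Maml1, Dll1 and Tle1 had few reads, and the wildtype mice differed widely in Hes1, from 42 to 338 reads. No paired analysis was possible because the labels carry mouse names and no replicate numbers shared between groups.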
